A study of Mus musculus with 6 samples.

Results

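The transcript levels of 42 genes that drive or restrain the cell cycle and DNA replication were compared between whole male embryos at E9.5 of 2 genotypes, *Smchd1*+/+ (wildtype, 3 embryos) and *Smchd1*MommeD1/MommeD1 (mutant, 3 embryos). The genes were taken by symbol from the 24207 entries of the expression table, and each of the 42 had 1 entry of its own that it shared with no other gene. MommeD1 is a chemically induced nonsense allele of *Smchd1*, which encodes a chromatin protein needed for X inactivation, and the embryos came from matings of heterozygous parents and were genotyped from the yolk sac. The sample labels give C57Bl6/J and FVB/n as the strains, whereas the text of the study gives a backcross of 4 generations to 129 T2/SvEms for these embryos, so the strain background is uncertain. The deposited values are FPKM, the fragments mapped to a transcript scaled by its length and by all mapped fragments, with 1 value per genotype pooled over its 3 embryos. No spread between embryos and no test could therefore be had, and FPKM do not give the depth of the libraries. Every difference below is between those pooled values, and a log2 ratio is always mutant over wildtype with 0.1 FPKM added to each value.

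*Smchd1* itself (chr17:71344415-71475343, mm10) was at 2.12 FPKM in mutants and 34.0 FPKM in wildtypes, a log2 ratio of -3.94. The tissue label was checked against markers of several embryonic tissues. All 12 of them, among them *Sox10* of the neural crest, *Meox1* of the somites and *Tbx5* of the limb and heart, averaged at least 1 FPKM and none was at 0. Since whole embryos were sequenced, a smaller share of a cell type and less RNA per cell of that type cannot be told apart.

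Cells divide through G1, S, G2 and M phases, and cyclins that bind cyclin-dependent kinases (CDKs) mark the steps between them. D-type cyclins with *Cdk4* or *Cdk6*, then E-type cyclins with *Cdk2*, inactivate the retinoblastoma family and release E2f factors, which switch on the genes of DNA synthesis. Genes of G2 and mitosis are held down in resting cells by the DREAM complex, whose binding element in promoters is the cell cycle homology region, and CDK inhibitors brake the kinases when cells leave the cycle. The midgestation embryo grows fast, so most of its cells are cycling, while newborn neurons have stopped dividing.

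The short words that the promoters of the genes hold are shown here because their counts per group do not use the expression values. Those values set only a background and the choice of the stretches shown. Differences between phases were not tested. RefSeq promoters of GRCm38.p6, from 250 bases before to 50 bases after the start, were matched for 34 of the 42 genes, and words were searched on both strands in each promoter of a gene. The E2F-type words TTTGGCGC, TTTCCCGC, TTTCGCGC and TTTGCCGC stood in 1 of 5 G1 promoters, 6 of 12 S phase promoters and 1 of 11 promoters of G2 and mitotic genes. They stood in 2.60% of all 27025 genes with a promoter, and in 4.96% of the genes that averaged at least 1 FPKM. The word TTTGAA of the cell cycle homology region stood in 8 of 11 promoters of G2 and mitotic genes, 2 of 12 S phase promoters and 0 of 5 G1 promoters, against 20.2% and 13.6% in the same backgrounds. With the bases before the start alone, 4 of 12 S phase promoters held an E2F-type word, against 2.16% and 4.16% in the same backgrounds. In that window 5 of 11 promoters of G2 and mitotic genes held TTTGAA, against 18.3% and 12%. The word CCAAT, bound by NF-Y, stood in 10 of 11 promoters of G2 and mitotic genes, 9 of 12 S phase promoters and 2 of 5 G1 promoters, against 41.1% and 43.8%. None of these words holds another, and a match is a description of the window only. In the stretches below, which end before the RefSeq start and run 5′ to 3′ on the strand of the gene, capitals mark the word or its reverse complement. The S phase genes shown are the 3 with the highest wildtype FPKM among those with an E2F-type word before the start. The G2 and mitotic genes shown are the 3 highest among those with TTTGAA before the start.
*Mcm7*, minus strand, chr5:138172030-138172059: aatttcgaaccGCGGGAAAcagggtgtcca
*Mcm5*, plus strand, chr8:75109349-75109378: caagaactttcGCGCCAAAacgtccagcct
*Mcm6*, minus strand, chr1:128359734-128359763: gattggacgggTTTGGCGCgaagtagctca
*Top2a*, minus strand, chr11:99024195-99024224: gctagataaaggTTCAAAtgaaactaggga
*Cdc20*, minus strand, chr4:118437344-118437373: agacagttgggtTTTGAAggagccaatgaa
*Cdk1*, minus strand, chr10:69352913-69352942: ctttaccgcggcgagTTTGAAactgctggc

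The genes of the cycle were among the more abundant transcripts of the embryo. Their median level was 81.7 FPKM in wildtype and 79.8 FPKM in mutant embryos, whereas the median wildtype level over the 12463 entries that averaged at least 1 FPKM was 11.3 FPKM. In wildtype embryos 35 of the 42 lay above that median, 17 were at 100 FPKM or more and 5 were under 10 FPKM. *Cdk4* was the highest at 643 FPKM and *Cdkn2c* the lowest at 0.729 FPKM. *Cdkn2c* was also the 1 gene of the 42 with a mean under 1 FPKM, so 41 genes entered the counts.

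The levels of these genes differed little between the genotypes. No gene of 41 differed by 1.5-fold or more, while 4.98% of all entries did, 3.51% higher and 1.47% lower in mutant embryos. That background is set mainly by weakly expressed entries: among entries with a mean of 20 to 200 FPKM, where 29 of the 41 genes lie, 1.29% differed by 1.5-fold or more. The count of 0 is therefore near what entries of such levels show. At a smaller threshold, a log2 ratio of 0.32 (25% higher), 2 of 41 genes passed, *E2f2* and *Cdkn1a*, both higher in mutant embryos, against 13.8% of all entries. The 29 genes with a mean of 20 to 200 FPKM held none of these, against 4.66% of entries at those levels.

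The median log2 ratio over the 41 genes was -0.0019, and over all entries it was -0.0076. Of the 41, 18 were higher and 23 lower in mutant embryos, and 48.2% of all entries and 41.9% of those with a mean of 20 to 200 FPKM were higher. This balance rests on the scaling. At the same total FPKM over all entries, which is meant by the same total FPKM below, 24 were higher and 17 lower. At the same total over named entries of at least 200 bp, 15 were higher and 26 lower. The counts were 22 and 19 when centred on the median of all entries, and 11 and 30 when centred on the housekeeping genes. A scaling moves all entries alike, and at the same total FPKM 58.6% of all entries were higher. The log2 ratio was within 0.1 of 0 for 26 of them, and for 44.6% of all entries and 54.9% of those with a mean of 20 to 200 FPKM. Each of the 42 genes also lay inside the central 90% of the log2 ratios of entries whose mean level was 0.5 to 2 times its own.

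**Figure D1:**
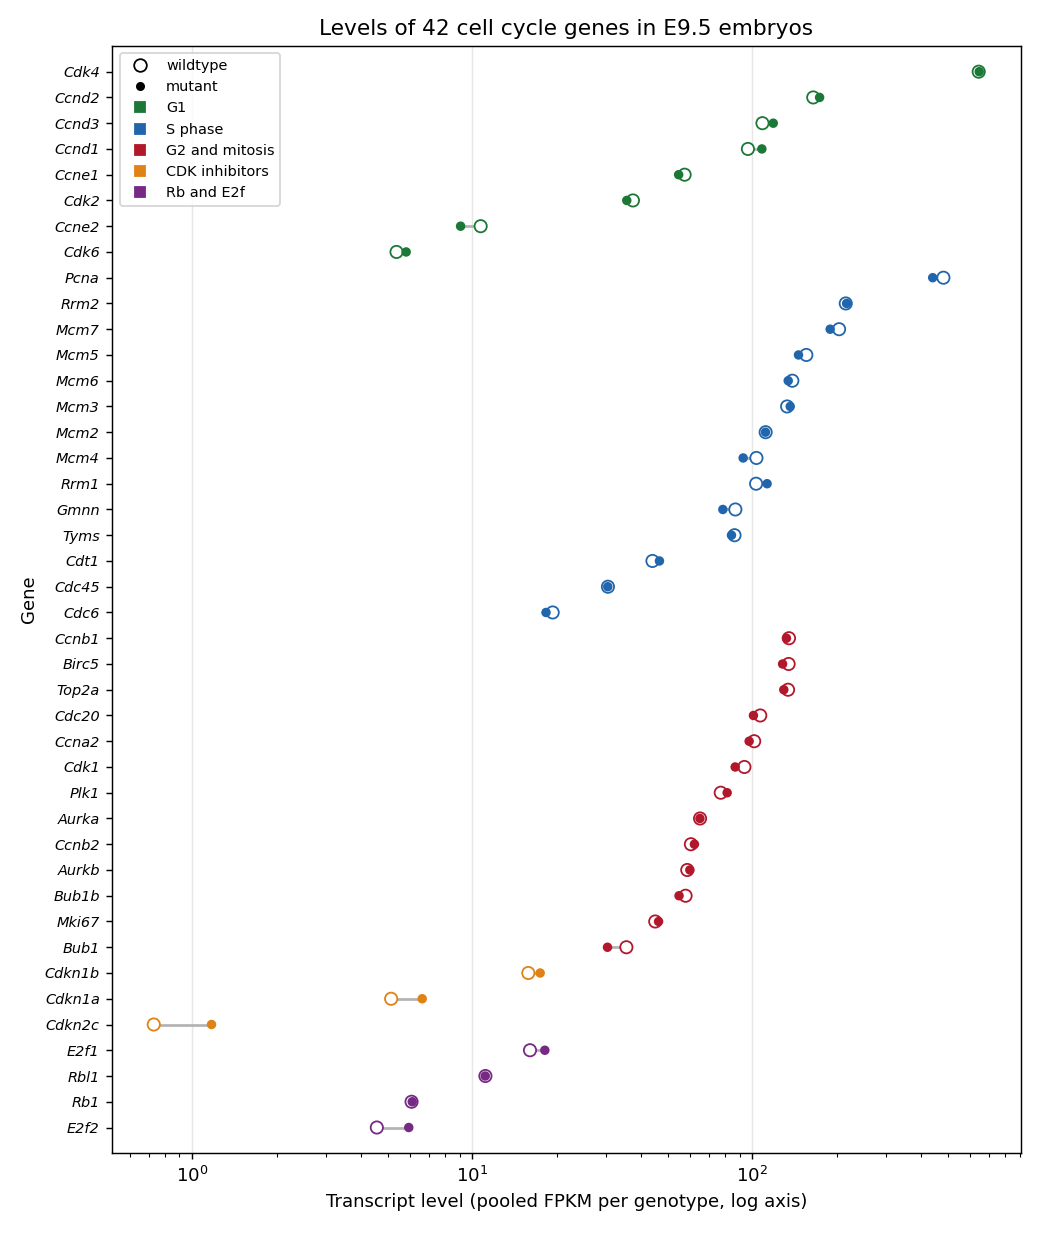
Transcript levels of the 42 genes as pooled FPKM on a log axis, with an open circle for wildtype and a filled dot for mutant embryos, ordered by wildtype level within each group. The 2 symbols overlap or lie close together for nearly every gene, from *Cdk4* at 643 FPKM in wildtype embryos down to *Cdkn2c* at 0.729 FPKM, and are farthest apart for *Cdkn2c*.

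The G1 genes were at nearly the same level in both genotypes. *Ccnd1*, a D-type cyclin on chromosome 7, was at 108 FPKM in mutants and 96.4 FPKM in wildtypes, a log2 ratio of 0.17. *Ccnd2* was at 174 and 165 FPKM (log2 ratio 0.08), and *Ccnd3* at 119 and 109 FPKM (0.13). All 3 D-type cyclins, set together after their values were seen, were thus slightly higher in mutant embryos, by 1.05-fold to 1.12-fold. Their kinase *Cdk4* was at 646 and 643 FPKM, a log2 ratio of 0.01. *Cdk6*, the other kinase that binds them, was at 5.80 and 5.36 FPKM (log2 ratio 0.11). The level of *Cdk4* was 111 times that of *Cdk6* in mutant and 119.9 times in wildtype embryos, so *Cdk4* was the main D-cyclin kinase transcript in both.

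The E-type cyclins, which act later in G1, were slightly lower in mutant embryos. *Ccne1* was at 54.5 FPKM in mutants and 57.3 FPKM in wildtypes, a log2 ratio of -0.07. *Ccne2* was at 9.08 and 10.7 FPKM, and its log2 ratio of -0.24 was the lowest of the 42. Their kinase *Cdk2* was at 35.6 and 37.5 FPKM (log2 ratio -0.07). Over the 8 G1 genes the median log2 ratio was 0.04, with 5 higher and 3 lower. It turned to -0.02 when the values were centred on the housekeeping genes, so the direction of this group is not settled.

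Among S phase genes, the 6 subunits of the MCM helicase that unwinds DNA at origins were measured at 92.7 to 189.5 FPKM in mutant and 103 to 204 FPKM in wildtype embryos. *Mcm7* was the highest and *Mcm4* the lowest subunit in both genotypes. *Mcm4* was at 92.7 FPKM in mutants and 103 FPKM in wildtypes, and its log2 ratio of -0.16 was the lowest of the S phase genes. *Mcm7* was at 189.5 and 204 FPKM (log2 ratio -0.11), and *Mcm5* at 146 and 156 FPKM (-0.09). *Mcm6* (log2 ratio -0.05), *Mcm2* (-0.0019) and *Mcm3* (0.04) were nearer to 0. The highest subunit was at 2.05 times the lowest in mutant and 1.97 times in wildtype embryos, while *Mcm3* and *Mcm6* changed order between the genotypes.

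The licensing and firing factors of replication origins went in either direction. *Cdt1*, which loads the helicase, was at 46.6 FPKM in mutants and 44.0 FPKM in wildtypes, a log2 ratio of 0.08. *Gmnn*, which encodes geminin, the inhibitor of Cdt1, was at 78.4 and 86.9 FPKM (log2 ratio -0.15). The level of *Gmnn* was therefore 1.68 times that of *Cdt1* in mutant and 1.98 times in wildtype embryos. *Cdc6*, the partner of Cdt1 in loading, was at 18.3 and 19.4 FPKM (log2 ratio -0.08). *Cdc45*, part of the active helicase, was at 30.4 and 30.5 FPKM (-0.0020).

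The sliding clamp of DNA polymerases and the enzymes of nucleotide supply were all abundant. *Pcna*, the clamp, was at 440 FPKM in mutants and 481 FPKM in wildtypes, a log2 ratio of -0.13. *Rrm1*, the large subunit of ribonucleotide reductase, was at 113 and 103 FPKM (log2 ratio 0.13), and *Rrm2*, its small subunit, at 217 and 215 FPKM (0.01). *Tyms*, thymidylate synthase, was at 84.2 and 86.3 FPKM (-0.04). Over the 14 S phase genes the median log2 ratio was -0.04, with 4 higher and 10 lower in mutant embryos. It was 0.0010 once the genotypes were rescaled to the same total FPKM over all entries. At the same total over named entries of at least 200 bp it was -0.06, so this direction too rests on the scaling.

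The genes of G2 and mitosis showed the same near equality. *Cdk1*, the mitotic kinase, was at 86.8 FPKM in mutants and 93.6 FPKM in wildtypes, a log2 ratio of -0.11. Its cyclins *Ccnb1* (132 and 135 FPKM, log2 ratio -0.03), *Ccnb2* (62.1 and 60.3 FPKM, 0.04) and *Ccna2* (97.4 and 101 FPKM, -0.06) lay closer to 0. *Plk1*, a kinase of mitotic entry, was at 81.3 and 77.1 FPKM, and its log2 ratio of 0.08 was the highest of this group.

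*Bub1*, a kinase of the spindle checkpoint, stood apart from the others of its group. It was at 30.4 FPKM in mutants and 35.5 FPKM in wildtypes, a log2 ratio of -0.22, which still lay inside the -0.25 to 0.24 that held the central 90% of entries of like level. Its paralogue *Bub1b* was at 54.7 and 57.7 FPKM (log2 ratio -0.08), and *Cdc20*, the target of the checkpoint, at 101 and 107 FPKM (-0.08). *Birc5*, which encodes survivin of the chromosomal passenger complex, was at 128 and 135 FPKM (-0.07).

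The remaining mitotic genes were closer still. *Aurka*, a kinase of spindle poles, was at 65.0 FPKM in both genotypes. *Aurkb*, the kinase of the passenger complex, was at 59.8 FPKM in mutants and 58.5 FPKM in wildtypes (log2 ratio 0.03). *Top2a*, which untangles sister DNA, was at 129 and 134 FPKM (-0.05). *Mki67*, the antigen used to mark cycling cells, was at 46.2 and 45.0 FPKM (0.04), and it is the 1 gene of the 42 whose entry the program of the authors marked as failed for testing, as it did 134 entries in all. Over the 13 genes of G2 and mitosis the median log2 ratio was -0.05, with 4 higher and 9 lower. It stayed below 0 under each scaling tried, from -0.11 to -0.0072.

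The CDK inhibitors and E2f factors held the 3 highest ratios of the 42, each in a gene under 10 FPKM. *Cdkn1a*, which encodes p21, was at 6.62 FPKM in mutants and 5.13 FPKM in wildtypes, a log2 ratio of 0.36 (1.29-fold). *Cdkn1b*, which encodes p27, was at 17.5 and 15.8 FPKM (log2 ratio 0.14). *Cdkn2c*, which encodes p18, was at 1.17 and 0.729 FPKM, and its log2 ratio of 0.62 was the highest of the 42, though at that level the central 90% of entries ran from -0.48 to 0.94. With 1 FPKM added in place of 0.1 FPKM its log2 ratio was 0.33. All 3 inhibitors were thus higher in mutant embryos, each inside the range of entries of like level.

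*E2f2* was at 5.93 FPKM in mutants and 4.56 FPKM in wildtypes, a log2 ratio of 0.37, and *E2f1* was at 18.2 and 16.1 FPKM (0.18). Both are activating E2f factors. Of the pocket protein genes, *Rb1* was at 6.10 and 6.07 FPKM (log2 ratio 0.01) and *Rbl1*, which encodes p107, at 11.1 FPKM in both genotypes. *Rbl2*, which encodes p130 and is not among the 42, was at 1.01 and 0.782 FPKM (log2 ratio 0.33), under the limit for counting. Of the 42 genes, 2 lie on chromosome 17 with *Smchd1*, *Ccnd3* at a distance of 23.7 Mb and *Cdkn1a* at 42.2 Mb, and none lies on the X chromosome.

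**Figure D2:**
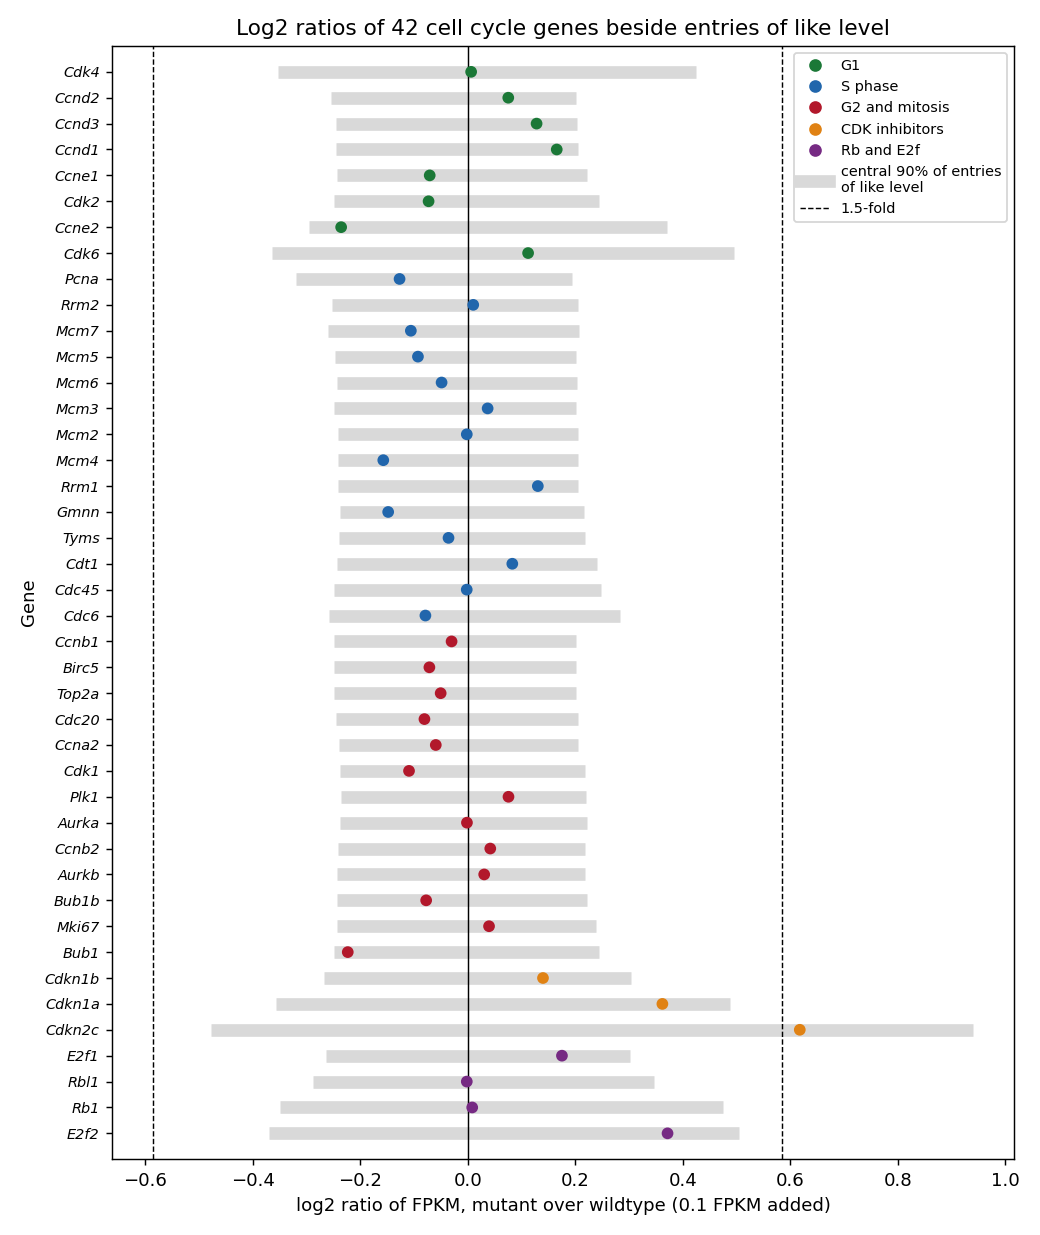
Log2 ratios of the 42 genes, mutant over wildtype, as coloured dots by group, over grey bars for the central 90% of all entries with 0.5 to 2 times the gene's mean level, and dashed lines at 1.5-fold. Every dot lies on its grey bar, and the dots of *Cdkn2c* (0.62), *E2f2* (0.37) and *Cdkn1a* (0.36) lie farthest to the right.

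The phases themselves can be set side by side. The median log2 ratio was 0.04 for the 8 G1 genes, -0.04 for the 14 S phase genes and -0.05 for the 13 genes of G2 and mitosis, beside -0.0076 over all entries and -0.03 over entries with a mean of 20 to 200 FPKM. The groups overlapped broadly, from -0.24 to 0.17 in G1, from -0.16 to 0.13 in S phase and from -0.22 to 0.08 in G2 and mitosis. Summed over its genes, each phase held nearly the same amount in mutant and wildtype embryos, 1151 and 1123 FPKM for G1, 1839 and 1913 FPKM for S phase and 1074 and 1105 FPKM for G2 and mitosis. Genes are not replicates, so these differences between phases were not tested.

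**Figure D3:**
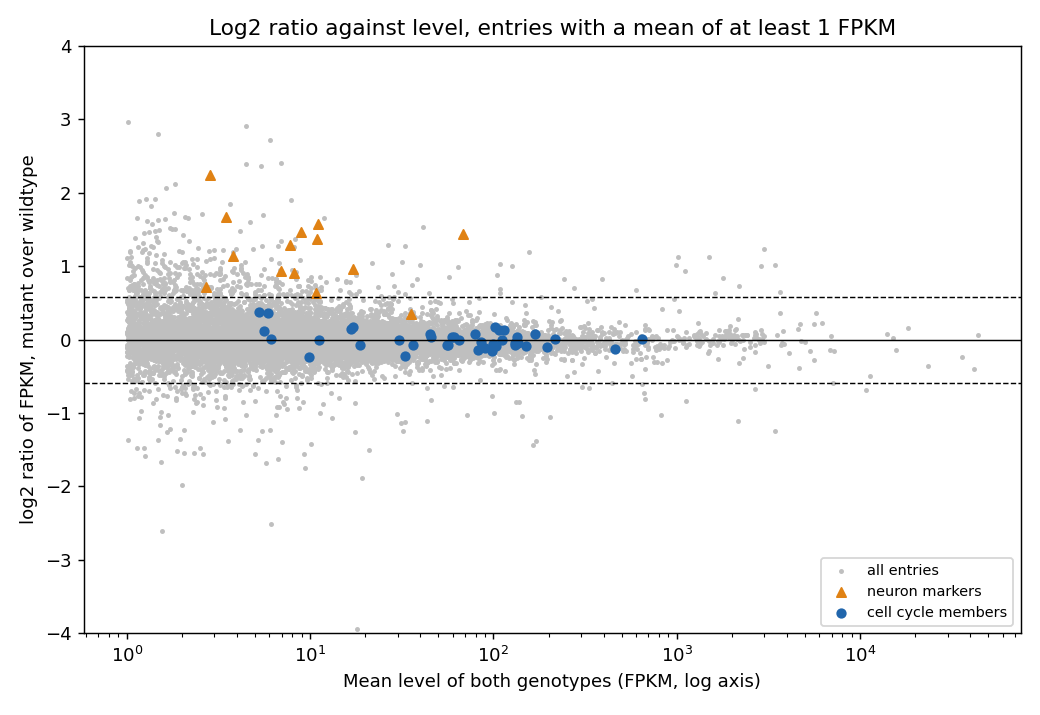
Log2 ratio, mutant over wildtype, against the mean level of both genotypes on a log axis, for all 12463 entries of at least 1 FPKM (grey), the 41 cell cycle genes (blue dots) and the neuron markers (orange triangles), with dashed lines at 1.5-fold and 10 entries beyond 4 on the log2 scale not shown. The blue dots stay between -0.24 and 0.37 at every level, while 13 of 14 triangles lie above the upper line.

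The other genes of the pathway were taken from lists drawn up by function, and the genes called lowest and highest in each list are those among its genes that averaged at least 5 FPKM. Of 118 entries in 5 lists of replication and mitosis genes, 33 (28.0%) were higher and 85 lower in mutant embryos. Of all entries 48.2% were higher, and of those at 20 to 200 FPKM 41.9%. None of the 118 differed by 1.5-fold or more, against 4.98% of all entries and 1.29% of those at 20 to 200 FPKM. Of the 118, 81 had a mean of 20 to 200 FPKM, so finding none is near what entries of such levels show. Rescaled to the same total FPKM, 61 of the 118 were lower, with 58.6% of all entries then higher. At the same total over named entries of at least 200 bp 91 were lower, and centred on the housekeeping genes 102 were lower. Among origin and helicase genes 18 of 19 were lower, with a median log2 ratio of -0.13. Under rescaling to the same total FPKM 13 of 19 were lower, with a median of -0.09. The lowest was *Orc4*, a subunit of the origin recognition complex, at 13.6 FPKM in mutants and 17.04 FPKM in wildtypes (log2 ratio -0.32), below the central 90% of entries of like level, followed by *Orc5* (-0.25) and the kinase gene *Cdc7* (-0.21). The highest were *Timeless* (0.01), whose entry was also marked as failed for testing, *Gins3* (-0.0089) and *Clspn* (-0.02), and the most abundant was *Tipin*, a fork protection gene, at 71.8 and 82.9 FPKM (-0.21).

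Genes of the replication fork were closer to 0, with 9 entries higher and 18 lower and a median of -0.03, which became 0.02 at the same total FPKM. *Pole2* (-0.21), *Rpa3* (-0.19) and *Pola1* (-0.17) were lowest, and *Rfc2* (0.08), *Pold2* (0.08) and *Uhrf1* (0.07) highest. These encode polymerase subunits, a subunit of the single-strand binding protein, a clamp loader subunit and, for *Uhrf1*, the most abundant at 129 and 123 FPKM, a partner of the maintenance DNA methyltransferase. Among nucleotide supply genes 3 were higher and 10 lower (median -0.12). The pyrimidine and purine synthesis genes *Cad* (-0.24), *Gart* (-0.20) and *Ctps* (-0.15) were lowest, while *Tk1*, thymidine kinase, was at 0.12, *Dck* at 0.03 and *Dctpp1* at -0.03. *Paics* was the most abundant, at 249 and 277 FPKM (-0.15).

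In the list of spindle and kinetochore genes 8 were higher and 21 lower, with a median of -0.05. The kinetochore genes *Cenpk*, at 12.6 FPKM in mutants and 17.9 FPKM in wildtypes (log2 ratio -0.51), *Cenph*, at 25.3 and 30.8 FPKM (-0.28), and the checkpoint gene *Mad2l1*, the most abundant of the list at 117 and 142 FPKM (-0.28), were the 3 outside the central 90% of entries of like level. *Cenpi* (0.13), *Cdca8* (0.07) and *Pttg1* (0.05) were highest. Among genes of mitotic entry, exit and cytokinesis 12 were higher and 18 lower, with a median of -0.02, which turned to 0.03 at the same total FPKM, with 10 lower. *Cdc25b*, a phosphatase that activates Cdk1, was at 26.1 and 19.7 FPKM, and its log2 ratio of 0.40 was the highest of the 5 lists and above the central 90% of entries of like level. *Anapc10* (0.13) and *Racgap1* (0.13) came next, *Anln* (-0.22), *Fbxo5* (-0.19) and *Anapc4* (-0.18) were lowest, and *Ube2s* was the most abundant at 308 and 297 FPKM (0.05).

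The CDK inhibitors outside the 42 were higher in mutant embryos wherever they averaged at least 1 FPKM. *Cdkn1c*, an imprinted gene that encodes p57, was at 148 FPKM in mutants and 104 FPKM in wildtypes, a log2 ratio of 0.51 (1.42-fold), above the central 90% of entries of like level. *Cdkn2d* was at 14.6 and 13.3 FPKM (log2 ratio 0.14) and *Cdkn3*, a phosphatase gene, at 10.2 and 9.86 FPKM (0.06). *Cdkn2a* was at 0.0780 and 0.292 FPKM, lower in mutant embryos, and *Cdkn2b* at 0.194 and 0.0903 FPKM, both too low to be counted. Of all 8 inhibitor genes, a grouping made after the values were seen, the 5 that averaged at least 1 FPKM were higher in mutants. Of all entries 48.2% were higher. The median log2 ratio of the 5 was 0.14, and 4 of them lay inside the central 90% of entries of like level. Centred on the housekeeping genes, *Cdkn3* was just under 0. *Cdkn1c* held most of the summed level, which was 199 FPKM in mutants and 149.5 FPKM in wildtypes.

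Other E2f, pocket protein and DP genes had a median of -0.02, with 1 higher and 7 lower, which turned to 0.02 with 3 lower at the same total FPKM. *E2f5* (-0.23), *Tfdp1* (-0.13), the most abundant at 110 and 120 FPKM, and *E2f4* (-0.07) were lowest. *E2f6* (0.13), *E2f8* (-0.0061) and *Tfdp2* (-0.0065) were highest. Since *Cdkn1a* is a target of p53, its fellow targets were also read. Of 15, 7 were higher and 8 lower, with a median of -0.0041, and their direction changed with the scaling. *Btg2*, an antiproliferative gene, was at 10.9 and 7.93 FPKM (log2 ratio 0.45, above the central 90% of entries of like level), *Trp53inp1* at 0.24 and *Phlda3* at 0.20. *Tigar* (-0.14), *Aen* (-0.14) and *Sesn2* (-0.13) were lowest among those averaging at least 5 FPKM, *Pmaip1*, at 1.54 and 2.11 FPKM, was lower still (-0.43), and *Bax*, the most abundant, was at 75.3 and 75.6 FPKM.

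Median log2 ratios of neuron, red cell and tail bud markers were larger in size than those of the cell cycle lists. The median of neural progenitor markers was smaller in size than these, but above the -0.0019 of the 41 cell cycle genes. Of 16 neuron markers 14 averaged at least 1 FPKM, and all 14 were higher in mutant embryos, with a median log2 ratio of 1.21. Of these 14, 13 were higher by 1.5-fold or more, against 3.51% of all entries. In either direction, 8.92% of entries at 2 to 5 FPKM and 4.14% at 5 to 10 FPKM differed that much. The summed level of the neuron markers was 273 FPKM in mutants and 127 FPKM in wildtypes, with *Tubb3*, a neuronal tubulin, as the most abundant at 99.9 and 37.0 FPKM. Among neuron markers averaging at least 5 FPKM, *Nefm* (1.57), *Ina* (1.46) and *Tubb3* (1.43) had the highest log2 ratios and *Gap43* (0.34), *Rtn1* (0.64) and *Map2* (0.91) the lowest. Below that level *Cntn2* reached 2.25. Neural progenitor markers, of cells that still divide, were higher for 9 of 10, against 48.2% of all entries, with a median of 0.27. Of the 10, 1 was higher by 1.5-fold or more, and 5 lay inside the central 90% of entries of like level. *Msi1* was the most abundant at 82.6 and 65.6 FPKM. The list ran from *Pax6* (-0.10), *Sox1* (0.05) and *Sox2* (0.11) to *Nes* (0.52), *Hes5* (0.52) and *Fabp7* (1.06).

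All 11 erythroid markers found were higher, 9 of them by 1.5-fold or more against 3.51% of all entries, with a median of 0.73. Of the 11, 8 lay above the central 90% of entries of like level. The other 3, *Nfe2* (0.60), *Epb4.2* (0.59) and *Epor* (0.41), lay inside it. The summed level of the list was 12738 and 6037 FPKM, which the embryonic globins *Hba-x*, *Hbb-y* and *Hbb-bh1* made up nearly alone. *Hbb-y* (1.23), *Alas2* (1.05) and *Hba-x* (1.02) were highest among those averaging at least 5 FPKM, while *Klf1* was at 0.57 and *Slc4a1* at 0.73. Of 13 tail bud markers 12 were lower, 10 of them by 1.5-fold or more against 1.47% of all entries, with a median of -1.23. Among those averaging at least 5 FPKM, *Cdx4* (-1.74), *Cdx2* (-1.62) and *Msgn1* (-1.36) were lowest, *T* was at -1.24 and *Fgf8* at -0.25, and *Lfng*, at 17.2 and 15.9 FPKM the most abundant, was at 0.12. No marker of these 4 lists was at 0 in either genotype. The part of these cell types in the levels of the cell cycle genes and CDK inhibitors was not tested.

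**Figure D4:**
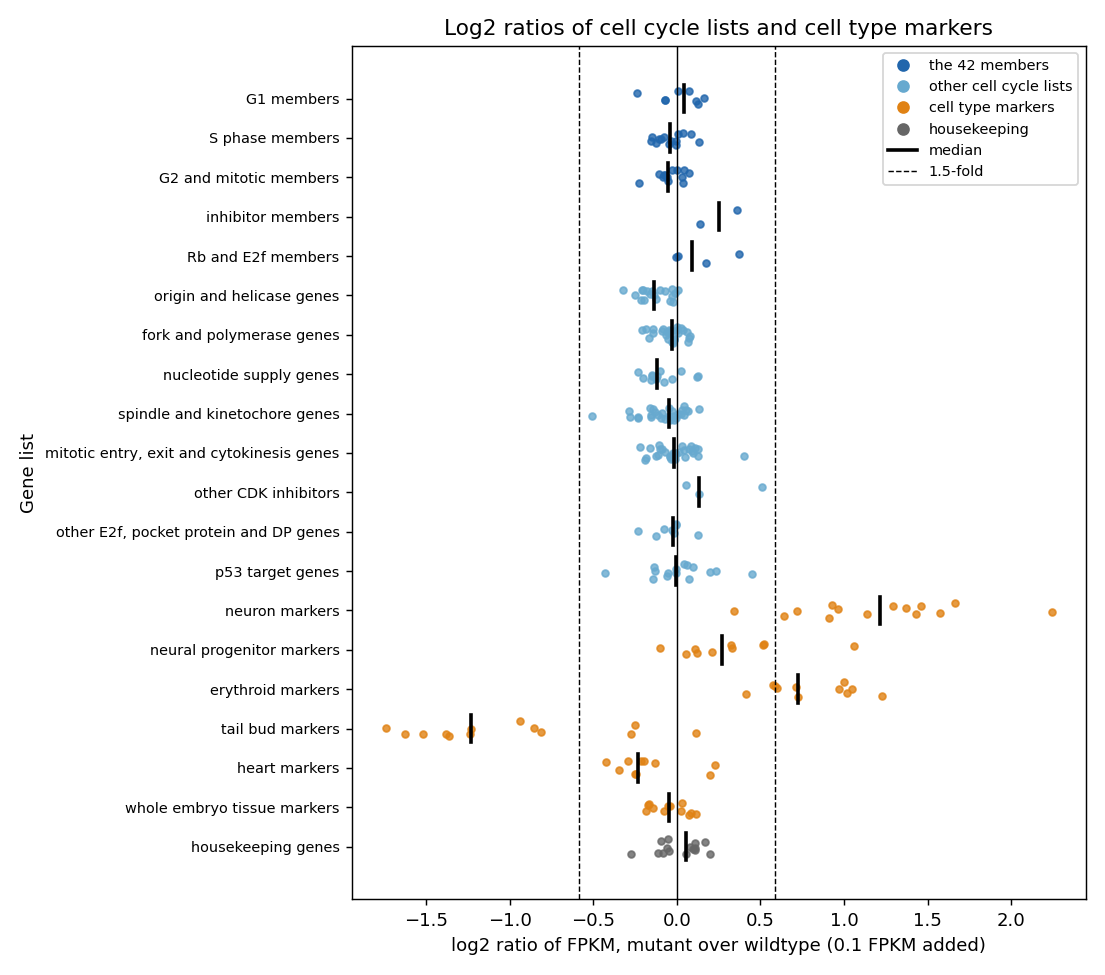
Log2 ratios of single genes that averaged at least 1 FPKM, mutant over wildtype, for the 5 groups of cell cycle members, the other cell cycle lists, the cell type markers and the housekeeping genes, with black bars for medians and dashed lines at 1.5-fold. No plotted gene of the cell cycle lists reaches a dashed line, whereas the medians of the neuron (1.21), erythroid (0.73) and tail bud (-1.23) markers lie beyond it.

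The reference genes used for scaling were themselves close to level. Of 15 housekeeping genes 8 were higher and 7 lower, with a median log2 ratio of 0.06 and *Ppia* as the most abundant at 3784 FPKM in mutants and 3948 FPKM in wildtypes. *B2m* was at 0.17 and *Sdha* at 0.11, and *Pgk1* (-0.27), *Gusb* (-0.11) and *Ywhaz* (-0.10) were lowest.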

How the data were processed

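RNA from 6 male E9.5 embryos, 3 of each genotype, was sequenced by the authors with single-end reads of 100 bp from nondirectional libraries, so strands cannot be told apart. The submitters' notes and the paper name TopHat2 2.0.6 with Bowtie2 2.0.2, the mm10 build and Cuffdiff 2.0.2. The annotation release is not given in the sources used here. The authors' deposited FPKM are pooled per genotype. The table also holds the authors' own comparison (fold changes, a test statistic, p-values and q-values), which was not used.

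Log2 ratios of mutant over wildtype were computed after adding 0.1 FPKM. Counts and medians cover entries that averaged at least 1 FPKM, and 1.5-fold was the threshold. No test was possible with 1 value per genotype. Groups came from the genotype labels. The named genes were the 42, *Smchd1* and, of each other list, the 3 highest and 3 lowest ratios among genes averaging at least 5 FPKM, the most abundant gene and any at 0, and some genes that the rule names are not reported here. Further genes named in the text, and heart markers, were added after their values were seen. The 42 genes and all lists were chosen with earlier results of these data known. Of 278 list entries, 4 were matched by an older symbol and *Ahsp* was not found. The steps were tested on simulated data. Python 3.11.15, numpy 2.4.6, pandas 2.3.3 and matplotlib 3.10.9 were used.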

Additional observations from a re-analysis of the deposited data

How the results depend on the processing

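Other pseudocounts, filters, scalings and thresholds gave 558 values for the results above, of which 544 moved by less than 0.1 on the log2 scale or, for counts, by no more than 1.5 times. The scalings shifted all log2 ratios by less than that tolerance, so they could change only signs and counts, and the medians of the G1, S phase, fork, mitotic entry and exit, other E2f and p53 target genes changed sign under at least 1 scaling. The log2 ratio of 41 of the 42 genes stayed under 1.5-fold in all settings, and 29 of 42 kept their sign. Without a filter on low values, 1 of the 42 genes passed 1.5-fold (*Cdkn2c*), and 2 of the other CDK inhibitors did, with 1 of these lower. At a log2 threshold of 0.32, 2 of the 41 genes that averaged at least 1 FPKM, 1 spindle and kinetochore gene, 1 gene of mitotic entry and exit, 1 other CDK inhibitor and 2 p53 targets passed. Centring on the housekeeping genes shifted every log2 ratio by -0.06, which left 11 of 41 genes higher and put 1 other CDK inhibitor below 0. Rescaling to the same total FPKM shifted them by 0.04, which left 10 genes of mitotic entry and exit and 3 of the other E2f, pocket protein and DP genes lower. With the total taken over named entries of at least 200 bp, the shift went the other way, by -0.02. With 1 FPKM added, *Cdkn2c* had a log2 ratio of 0.33. With the bases before the start alone, 5 of 11 G2 and mitotic promoters held TTTGAA, against 18.3% of all genes with a promoter. Leaving out entries marked as failed, and the comparison at 20 to 200 FPKM, were chosen after seeing the data. No paired analysis was possible because 1 pooled value per genotype was used, and for the same reason no embryo could be left out.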

Other observations

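How far entries differed between the genotypes depended on their level, which sets the scale against which the cell cycle genes are read. Among entries of 1 to 2 FPKM, 15.9% differed by 1.5-fold or more, and the central 90% of log2 ratios ran from -0.48 to 0.92. Among entries of 50 to 100 FPKM, where 11 of the 42 genes lie, 0.883% did, and the central 90% ran from -0.23 to 0.21. The share was 3.08% at 100 to 200 FPKM, where 13 of the 42 lie, and 3.23% at 200 to 500 FPKM, where 2 lie. The heart markers were lower for 8 of 10 genes, while 48.2% of all entries were higher. Their median log2 ratio was -0.23, and 7 of the 10 lay inside the central 90% of entries of like level. *Myl7*, the most abundant at 317 FPKM in mutants and 425 FPKM in wildtypes, had the lowest log2 ratio (-0.42). *Myl2* (0.23, above the central 90%) and *Tnni3* (0.20) were higher in mutant embryos.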
